A study of Rattus norvegicus with 12 samples.

Results

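Exosomes from AS-Tspan8 tumour cells were compared with exosomes from AS tumour cells on 4 of the 12 arrays of the series, 2 per kind, chosen by their sample labels. AS is a rat pancreatic tumour line of the BDX strain, and AS-Tspan8 is its counterpart that carries the tetraspanin Tspan8, called D6.1A in the older label. Both cell lines were grown in medium with serum and then starved for 36 hours, and exosomes were collected from serum-free medium. The AS-Tspan8 cells and the AS cells themselves were measured on 1 array each and are set beside the exosomes without a test. The labels do not say whether AS-Tspan8 is 1 clone, or whether arrays of a kind came from separate cultures, so that p-values measure the spread between these arrays, which may be technical.

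Exosomes are small vesicles released when multivesicular bodies fuse with the plasma membrane, and they carry protein together with mRNA and small RNA. Tetraspanins such as Tspan8 are membrane proteins that gather integrins and other partners into webs and are abundant in exosome membranes. RNA in vesicles is often short or broken and need not mirror the RNA of the cell that shed it. In a bulk preparation, fewer vesicles with a transcript and less of it per vesicle cannot be told apart.

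Signals are the intensities as deposited, and a probe was called detected where its detection p-value, the comparison with negative control probes, was under 0.01. AS-Tspan8 exosomes 1 and 2 detected 2342 and 2104 of 22523 probes, AS exosomes 1 and 2 detected 2535 and 3604, and the source cells detected 9389 (AS-Tspan8) and 9269 (AS). Unnamed probes, which have no gene symbol in the annotation used, gave 52.4% and 54.4% of the summed signal in AS-Tspan8 exosomes and 49.4% and 44.4% in AS exosomes. They gave 22.2% in AS-Tspan8 cells and 24.3% in AS cells.

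AS exosomes 2 stood apart from the other 3 exosome arrays. Over 1550 named genes its log2 signals correlated with those of its own source cells at r = 0.733, against 0.245 and 0.0 for AS-Tspan8 exosomes 1 and 2 and 0.194 for AS exosomes 1. Ribosomal protein probes gave 1.55% and 0.963% of the signal in AS-Tspan8 exosomes and 1.96% and 5.43% in AS exosomes. After normalization AS-Tspan8 exosomes 1 differed from AS exosomes 1 with an SD of 0.59 on the log2 scale, close to the SD of 0.57 between both AS-Tspan8 exosome arrays and below the SD of 1.12 between both AS exosome arrays. Main results that rest on AS exosomes 2 are given with and without it, or within the number 1 and the number 2 arrays.

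The presence of Tspan8 was checked first. The Tspan8 probe gave 2036 in AS-Tspan8 cells and 75.1 in AS cells, where it was not detected, as labelled. In the exosomes it gave 87.6 and 89.2 (AS-Tspan8) and 96.2 and 83.6 (AS) and was detected on none of the 4 arrays at the limit of 0.01. Its detection p-values were 0.0206 and 0.0267 in AS-Tspan8 exosomes and 0.0667 and 0.101 in AS exosomes, so that at a limit of 0.05 it would count as detected on both AS-Tspan8 arrays and on neither AS array.

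Of 2581 features tested, 66 differed between AS-Tspan8 and AS exosomes by limma's moderated test at a Benjamini-Hochberg adjusted p under 0.05 (2.56%). A feature is a named gene's brightest probe or an unnamed probe that was detected on at least 2 of the 4 arrays. Of these, 57 were higher (2.21%) and 9 were lower (0.349%). All 57 higher features were unnamed probes, while 6 of the 9 lower ones were the named transcripts Igf2, Ifi27l2b, Nop58, Arpp19, Pfdn6 and Terc. Unnamed probes leaned higher as a class: of 1031 tested, 753 were higher and 278 lower, with a median log2 difference of 0.464. Of the 1550 named genes tested, 715 were higher and 835 lower, with a median of -0.112. Some features entered the test through the kind where they were brighter. Detected on both AS-Tspan8 arrays only were 79 unnamed and 39 named probes, and on both AS arrays only 35 unnamed and 140 named probes. The number of calls was not stable. It was 3 without AS-Tspan8 exosomes 1, 0 without AS-Tspan8 exosomes 2 (40 features at an unadjusted p under 0.05), 677 without AS exosomes 1 and 2 without AS exosomes 2. By limma without scaling between arrays it was 0, with 438 features at an unadjusted p under 0.05. Under median scaling 3 calls were higher and 1 lower. Every one of the 66 calls that could be tested kept its direction under each of the 17 alternatives. They were chosen by a large difference on these same arrays, so the kept direction is no further support.

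**Figure D1:**
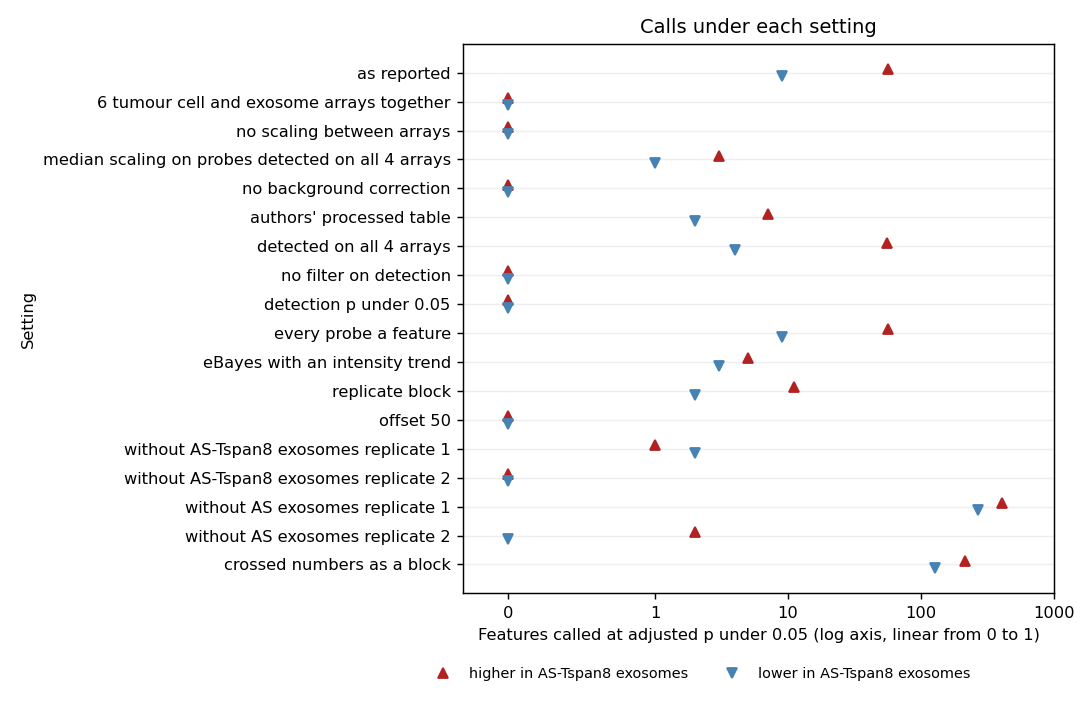
Number of features called at adjusted p under 0.05 (horizontal, log axis that is linear from 0 to 1) under each setting (vertical), with upward triangles for features higher and downward triangles for features lower in AS-Tspan8 exosomes. The reported setting gives 57 and 9, and the other settings run between 0 and 406 higher and between 0 and 271 lower.

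Igf2, which encodes insulin-like growth factor 2, a secreted growth factor, had the lowest log2 difference. It gave signals of 88.7 and 72.0 in AS-Tspan8 exosomes, not detected on either array, against 615.9 and 1887 in AS exosomes, detected on both. All AS exosome values lay above both AS-Tspan8 values. The normalized difference was -4.46 ± 0.64 (log2, SE, n = 2 arrays each, limma adjusted p = 3.34e-08). Since the AS-Tspan8 arrays give only a bound, Igf2 was at least 14.3-fold lower under the reported normalization. It holds for that normalization only, since the fitted difference changed with the setting, for example -2.99 without background correction and -5.06 without scaling. The bound sets the mean of the brighter kind against the lowest detected signal, or the probe's own where higher, on each dim array. Igf2 was detected in both source cells, with 6536 in AS-Tspan8 cells and 32534 in AS cells, a normalized difference of -2.68 with no replicate. Within the number 1 arrays the exosome difference was -3.73 and within the number 2 arrays -5.20. Both signs follow from the groups being apart, which the rule for naming genes required. With either AS exosome array left out Igf2 was detected on only 1 array and was not tested. Across 14 alternatives in which Igf2 was tested it ran between -5.81 and -2.99 and was called in 7, with limma adjusted p up to 0.807. The smallest, 3.96e-18, came from the crossed block. That alternative takes the replicate numbers, crossed between the kinds, as a block and was added after the data were seen.

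Terc, the RNA template of telomerase, is a non-coding RNA that the enzyme copies onto chromosome ends. It gave 67.4 and 64.1 in AS-Tspan8 exosomes, not detected, against 224.7 and 206.0 in AS exosomes, detected on both arrays. Both AS exosome values were higher than in the cells, where Terc gave 147.6 (AS-Tspan8) and 132.0 (AS). Terc fell by 2.17 ± 0.64 (log2, SE, limma adjusted p = 0.035), a drop of at least 2.24-fold under the reported normalization. The difference was -2.41 within the number 1 arrays and -1.93 within the number 2 arrays. Here too both signs follow from the groups being apart. Terc was called in 4 of 14 alternatives, among them the crossed block. With either AS exosome array left out it was not tested, since it was then detected on only 1 array.

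For the other 4 named transcripts the AS exosomes 2 value was by far the brightest of the exosome arrays. Ifi27l2b, a member of the interferon-inducible Ifi27 family, gave 363.1 and 196.5 in AS-Tspan8 exosomes and 920.4 and 5774 in AS exosomes (-2.80, limma adjusted p = 0.003). Nop58, a core protein of box C/D small nucleolar ribonucleoproteins, gave 127.6 and 84.7 in AS-Tspan8 exosomes and 345.6 and 900.1 in AS exosomes (-2.67, limma adjusted p = 0.0042). For both genes the groups did not overlap, which the rule for naming genes required.

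Arpp19, an inhibitor of the phosphatase PP2A-B55 that helps cells enter mitosis, gave 97.9 and 71.9 in AS-Tspan8 exosomes and 204.5 and 800.8 in AS exosomes (-2.61, limma adjusted p = 0.00576). Pfdn6, a subunit of the chaperone prefoldin, gave 103.2 and 77.0 in AS-Tspan8 exosomes and 218.3 and 587.3 in AS exosomes (-2.31, limma adjusted p = 0.0217). In the source cells all 4 were bright, between 2008 and 11154, and the normalized cell differences ran between -0.63 for Nop58 and 0.12 for Pfdn6. Without AS exosomes 2 none of the 4 was called: the differences were -1.56 (Ifi27l2b), -2.02 (Nop58), -1.48 (Arpp19) and -1.48 (Pfdn6), with limma adjusted p between 0.204 and 0.236.

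**Figure D2:**
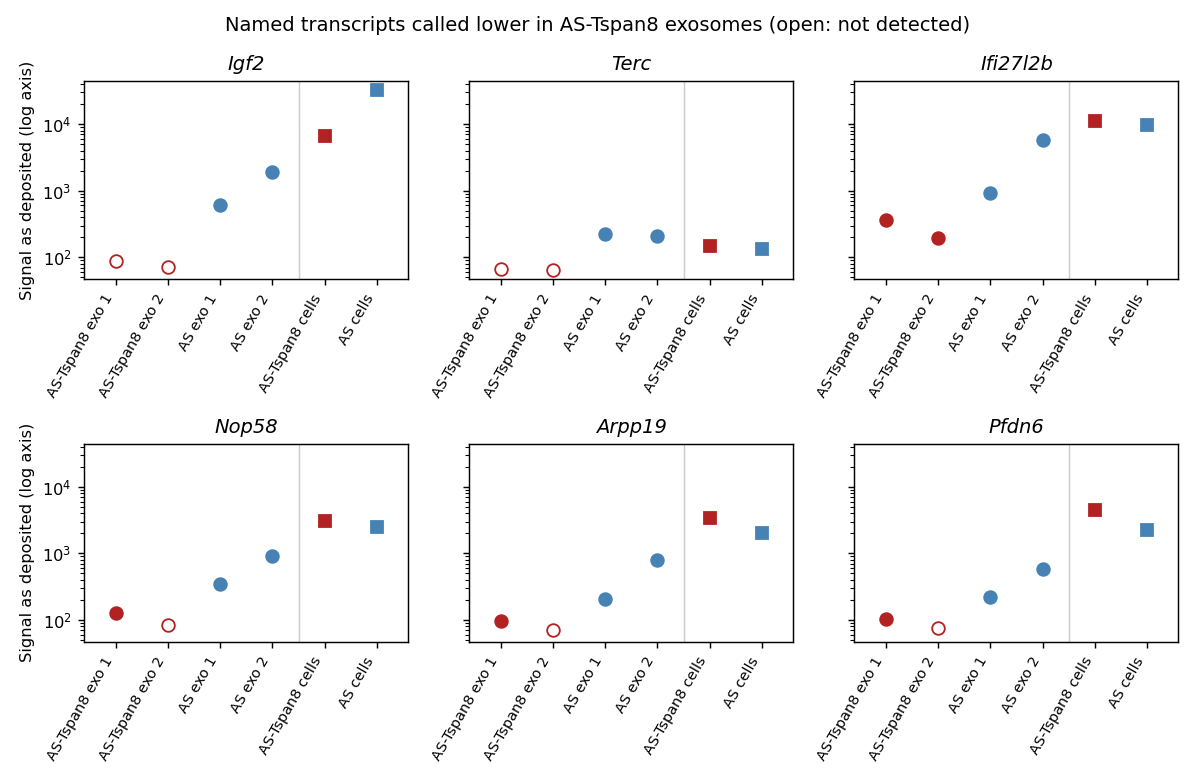
Deposited signal (vertical, log axis) of the 6 named transcripts called lower, per array: circles are exosomes, squares are source cells, red is AS-Tspan8, blue is AS, and open symbols are not detected. Igf2 and Terc are open on both AS-Tspan8 exosome arrays, and in the other 4 panels AS exosomes 2 is the highest of the exosome arrays.

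The 3 unnamed probes called lower were also detected in both source cells. Those with the lowest differences are given here, so a gap between the groups was favoured by the choice. The probe ILMN_1358849 gave 593.9 and 174.3 in AS-Tspan8 exosomes and 1662 and 6055 in AS exosomes (-3.12, limma adjusted p = 0.000734). The probe ILMN_1358095 gave 2543 and 837.9 in AS-Tspan8 exosomes and 5155 and 14297 in AS exosomes (-2.52, limma adjusted p = 0.00864). The groups did not overlap for either probe, and without AS exosomes 2 neither was called, with differences of -2.40 and -2.24.

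The 57 unnamed probes called higher behaved otherwise in the source cells. Their log2 differences ran between 2.1 and 3.91, and 55 were detected on all 4 exosome arrays. Of the 57, 38 were detected in neither source cell array, 7 in 1 and 12 in both. Among all 1031 unnamed probes tested, 402 were detected in neither and 581 in both. Of the 57, 55 were brighter on every exosome array than on both cell arrays, a trait not counted over all features. Their median signal was 552 and 860 in AS-Tspan8 exosomes, 321 and 220 in AS exosomes, 95.5 in AS-Tspan8 cells and 79.7 in AS cells. The signals as deposited did not overlap between the exosome kinds for any of the 57. They were chosen by a large difference on these same arrays, and the share over all features was not counted, so this is no further support.

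The highest difference was that of the probe ILMN_1364489, with 752.4 and 1397 in AS-Tspan8 exosomes and 155.1 and 219.8 in AS exosomes (3.91, limma adjusted p = 3.26e-06). It was called also without AS exosomes 2, at 3.95 with a limma adjusted p of 0.0246. The probe ILMN_1352266 gave 579.0 and 875.8 in AS-Tspan8 exosomes and 192.1 and 155.9 in AS exosomes (3.56, limma adjusted p = 4.71e-05), and 3.03 with an adjusted p of 0.0707 without AS exosomes 2. The brightest probe of the exosomes, ILMN_1369444, was unnamed and was not called: it gave 35020 and 29914 in AS-Tspan8 exosomes and 37099 and 31020 in AS exosomes, a difference of 0.03.

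Features tested were also divided by their detection in the source cells. The 588 features detected in neither source cell array had a median difference of 0.744, with 529 higher and 59 lower, and the 1898 detected in both had a median of -0.146, with 846 higher and 1052 lower. All 2581 had a median of 0.165. Among features detected in neither, the median signal was 117 and 125 in AS-Tspan8 exosomes and 160 and 105 in AS exosomes. Among those detected in both it was 121 and 111 in AS-Tspan8 exosomes and 166 and 212 in AS exosomes, so the set's AS exosomes 2 value lay below AS exosomes 1 in the first case and above it in the second. After normalization the 588 features detected in neither had medians of 6.34 and 6.66 in AS-Tspan8 exosomes and 6.34 and 5.24 in AS exosomes (log2). Their median difference was 0.04 within the number 1 arrays, 1.40 within the number 2 arrays and 0.18 without AS exosomes 2, so most of its size came with that array. For features detected in both it was -0.02, -0.11 and -0.07. Without scaling between arrays the median over all features was -0.55, and each difference has to be read against that shift. The filter let some features in through 1 exosome kind alone. Of probes detected in neither cell, 77 were detected on both AS-Tspan8 exosome arrays only and 11 on both AS exosome arrays only. Of probes detected in both cells these counts were 32 and 163. Among features detected on all 4 exosome arrays the medians were 0.82 (neither, 269) and 0.08 (both, 1175), the second with its sign turned.

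**Figure D3:**
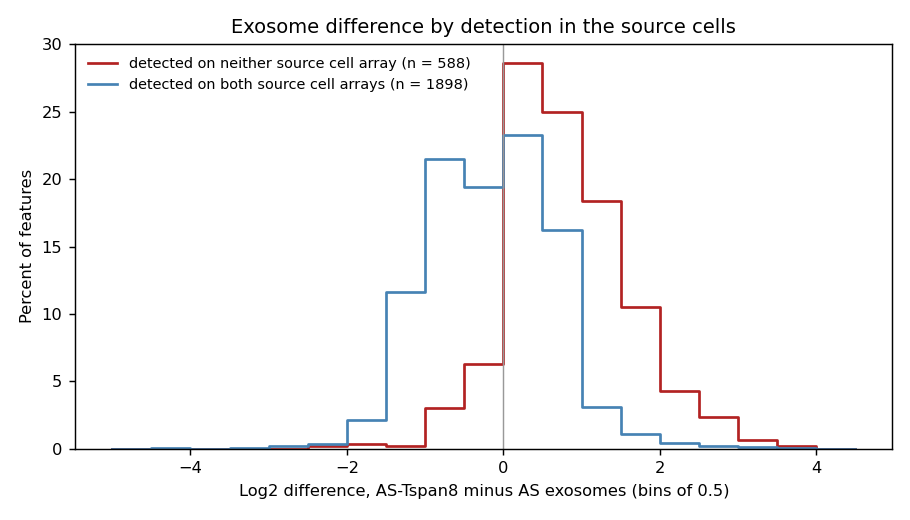
Percent of features (vertical) in bins of the log2 difference, AS-Tspan8 minus AS exosomes (horizontal), for features detected in neither source cell array (red, 588) and in both (blue, 1898). The red outline lies mostly right of 0, with a median of 0.744, and the blue one has a median of -0.146. Features needed detection on at least 2 of the 4 exosome arrays, so some entered through 1 exosome kind alone.

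Among named genes none was called higher in the fit reported here. Lims1, which encodes the integrin-linked adaptor PINCH1, had the lowest unadjusted p of those above: it gave 158.9 and 142.0 in AS-Tspan8 exosomes, detected on both, and 110.7 and 80.1 in AS exosomes, detected on neither (1.95 ± 0.64, limma adjusted p = 0.0715). Within numbers its difference was 1.72 and 2.18, and both signs follow from the groups being apart, which the rule for naming genes required. Across 14 alternatives Lims1 ran between 1.01 and 3.78 and was called in 2. These were the fit without AS exosomes 1, which leaves 1 AS exosome array, and the crossed block, which gave 342 calls over all features. Cndp2, a cytosolic dipeptidase, gave 106.3 and 124.4 in AS-Tspan8 exosomes and 92.3 and 71.3 in AS exosomes (1.51, limma adjusted p = 0.238), and it gave 300.1 in AS-Tspan8 cells and 68.7 in AS cells, where it was not detected. Across 14 alternatives Cndp2 ran between 0.78 and 4.40 and was called in 3. These were the authors' processed values (3.66, limma adjusted p = 0.0376), the fit without AS exosomes 1 (1.65) and the crossed block. Mapk8, the stress kinase JNK1, gave 138.4 and 106.2 in AS-Tspan8 exosomes and 99.8 and 79.7 in AS exosomes (1.47, limma adjusted p = 0.263).

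For the next genes of the same rank the deposited signals overlapped and only the normalized values were apart. Cdyl2, a chromodomain protein, gave 208.8 and 295.9 in AS-Tspan8 exosomes and 265.6 and 105.0 in AS exosomes (1.76, limma adjusted p = 0.133). Crnkl1, a splicing factor, gave 223.8 and 186.2 in AS-Tspan8 exosomes and 189.6 and 117.8 in AS exosomes (1.63, limma adjusted p = 0.182). Ripply3, Spetex2b, Spetex2h, Tent5a and Nrf1 had differences of 1.68, 1.51, 1.46, 1.44 and 1.41, with adjusted p between 0.165 and 0.305.

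On the lower side, Eif3d, a subunit of the translation initiation factor eIF3, gave 88.9 and 74.2 in AS-Tspan8 exosomes and 155.9 and 449.0 in AS exosomes (-2.05, limma adjusted p = 0.0555). Akr1c12, an aldo-keto reductase and the named gene of highest mean signal over the 4 exosome arrays, gave 5127 and 535.2 in AS-Tspan8 exosomes and 4718 and 10530 in AS exosomes (-2.06, limma adjusted p = 0.0565). Its AS-Tspan8 arrays differed from each other more than the number 1 arrays of the kinds did, and its signals as deposited overlapped. Serf1 and Abhd4 had differences of -2.01 and -1.95, with adjusted p of 0.0624 and 0.074.

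Detection alone was also compared, without scaling. Of all probes, 1495 were detected on all 4 arrays, 118 on both AS-Tspan8 exosome arrays and neither AS exosome array, and 175 the other way round. The 118 held 39 named probes and 77 that neither source cell detected. The 175 held 140 named probes and 163 that both source cells detected. Both sets were dim, with median signals of 106 (AS-Tspan8 only) and 138 (AS only).

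The brightest named genes of the AS-Tspan8 only set were Lims1, Hk2, Mapk8, Or1f20e, Cndp2 and Slc3a1. Hk2, the hexokinase that starts glycolysis, gave 126.9 and 118.3 in AS-Tspan8 exosomes and 115.0 and 96.6 in AS exosomes. All 4 values lay close to the lowest detected signals, which were 95.2 and 98.1 on the AS-Tspan8 and 116.1 and 103.9 on the AS exosome arrays. The brightest of the AS only set were Igf2, Eif3d, Ninj1, Tmem160, Psmd4 and Sp110. Psmd4, the ubiquitin receptor of the proteasome, gave 83.9 and 79.8 in AS-Tspan8 exosomes and 142.0 and 355.6 in AS exosomes. Without AS exosomes 2 the sets held 147 and 368 probes, and without AS exosomes 1 they held 336 and 1633.

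Most housekeeping transcripts had lower fitted values in AS-Tspan8 exosomes, but no member passed the test, and for most of these lists the lower median came from the number 2 arrays, with medians near or above 0 within the number 1 arrays. Members could enter the test through detection on the AS exosome arrays alone, which favoured lower values. Of 1317 named genes tested that both source cells detected, 808 were lower, with a median of -0.293. Cytosolic ribosomal proteins were lower for 47 of 51 members tested, with a median of -1.02. Of this list 51 were detected on both AS exosome arrays and 50 on both AS-Tspan8 exosome arrays. Rplp0, a stalk protein of the large subunit, gave 2276 and 1543 in AS-Tspan8 exosomes and 3209 and 12065 in AS exosomes (-1.68, limma adjusted p = 0.164). The list's median was -0.17 within the number 1 arrays and -1.95 within the number 2 arrays. Without AS exosomes 2 it was -0.50, beside a median of -0.02 over all features. Rps3, Rps27 and Rpl41 had differences of -1.57, -1.55 and -1.54. Rpl21 had 1867 and 2197 in AS-Tspan8 exosomes and 3386 and 2948 in AS exosomes, a normalized difference of 0.02 that turned negative without scaling. The other brightest members, Rpl32, Rpl9, Rpl29, Rps18 and Rpl17, ran between -1.49 and -1.02.

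Subunits of oxidative phosphorylation, which make ATP in mitochondria, were lower for 40 of 40 members tested with a median of -1.06. Of this list 40 were detected on both AS exosome arrays but only 26 on both AS-Tspan8 exosome arrays. Ndufb2, of complex I, gave 198.7 and 99.2 in AS-Tspan8 exosomes and 278.2 and 1181 in AS exosomes (-1.77, limma adjusted p = 0.133). The list's median was 0.16 within number 1, -2.33 within number 2 and -0.29 without AS exosomes 2. Ndufa11, Ndufa6 and Uqcrh had differences of -1.50, -1.41 and -1.40.

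Proteasome subunits were lower for 22 of 23, with a median of -1.03 (-0.04 within number 1, -2.15 within number 2 and -0.31 without AS exosomes 2). Of this list 23 were detected on both AS exosome arrays but only 11 on both AS-Tspan8 exosome arrays. Psmb4, a subunit of the catalytic core, gave 179.5 and 136.8 in AS-Tspan8 exosomes and 299.3 and 1173 in AS exosomes (-1.39, limma adjusted p = 0.325). Psmb8, Psme1 and Psmb1 had -1.20, -1.12 and -1.03. Mitochondrial ribosomal proteins were lower for 13 of 13 with a median of -0.73 (0.11 within number 1, -1.74 within number 2 and -0.11 without AS exosomes 2), led by Mrps18a at -1.51, with Mrpl37, Mrpl16 and Mrps35 at -1.06, -0.69 and -0.66.

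Glycolytic and hypoxia genes were lower for 11 of 12 (median -0.88). Gapdh, a glycolytic enzyme, gave 245.2 and 143.0 in AS-Tspan8 exosomes and 541.6 and 1679 in AS exosomes (-1.80, limma adjusted p = 0.116), and Gpi, Tpi1 and Aldoa had -1.37, -1.33 and -0.96. Actin, tubulin and partner genes were lower for 11 of 12 (median -0.84), with Arpc5 at -1.27, Cfl1 at -1.22, Tubb4b at -1.09 and Tuba1a at -0.95. Glutathione and antioxidant enzymes were lower for 14 of 17 (median -0.79), with Gpx4 at -1.63, Prdx2 at -1.23, Prdx3 at -0.96 and Sod1 at -0.95. Heat shock proteins and chaperones were lower for 14 of 14 (median -0.76), with Hspd1 at -1.06, Dnaja2 at -0.82, Ppia at -0.70 and Hspa9 at -0.60. In these 4 lists no member passed the test either. Within number 1 their medians were 0.12, 0.16, 0.38 and -0.14, within number 2 they were -1.80, -1.69, -2.02 and -1.38, and without AS exosomes 2 they were -0.19, -0.25, 0.14 and -0.23, each in the order above. The sign of the glutathione list turned without that array.

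Translation factors were lower for 16 of 19 (median -0.35, with 0.19 within number 1, -1.19 within number 2 and -0.10 without AS exosomes 2), with Eef1a1 at -1.29, Eef1b2 at -1.15, Eef2 at -1.11 and Eef1d at -0.75. The unfolded protein and ATF4 response genes were lower for 7 of 8, with Ddit4, Ddit3, Calr and Hspa5 at -0.95, -0.85, -0.62 and -0.07, and a median of -0.74, or -0.16 without AS exosomes 2. Interferon response genes were lower for 6 of 7, with B2m at -1.02, Irf7 at -0.65 and Bst2 at 0.56, and a median of -0.65, or -0.10 without AS exosomes 2. Tnip1 and Cxcl1 of the NF-kB list had -0.80 and 0.29, and Ccnd1 of the cell cycle list had -0.78. Histones, tRNA synthetases, annexins and S100 proteins, sterol synthesis, immediate early, matrix, protease, angiogenic and iron genes had between 2 and 4 members tested and no call.

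Among splicing proteins, 4 of 7 tested were lower with a median of -0.16. Hnrnpu, a nuclear matrix RNA-binding protein, had similar differences within both numbers: it gave 112.9 and 109.7 in AS-Tspan8 exosomes and 393.1 and 446.5 in AS exosomes, with both AS values far above both AS-Tspan8 values. Its difference was -1.87 ± 0.64 (limma adjusted p = 0.0912), -2.01 within number 1 and -1.73 within number 2. It was named for the largest difference of its list, so a gap between the groups was favoured by the choice. Hnrnph3, Hnrnpl and Hnrnpm had 0.35, 0.33 and 0.26. Zinc finger genes were split 7 to 7, with Zfp148, Zfp180, Zfp131 and Zfp57 at 0.58, 0.58, -0.49 and 0.49.

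Olfactory and vomeronasal receptors, chemosensory receptors of the nose, were higher for 38 of 40 tested with a median of 0.57. Of 1271 measured, 1227 were detected on no exosome array. Vom2r3 gave 127.8 and 151.6 in AS-Tspan8 exosomes and 140.3 and 110.4 in AS exosomes (1.22, limma adjusted p = 0.403), and Vom2r59, Or8b8 and Or52p1 had 0.76, 0.76 and 0.72. The list's median was 0.00 within number 1, 1.15 within number 2, 0.14 without AS exosomes 2 and -0.21 without scaling. The median over all features was 0.165 in the reported fit and -0.55 without scaling, and the list lay above it in both. Only 17 of the 1271 receptors were detected in both source cells. Named genes detected in neither source cell leaned the same way, with 161 of 186 higher and a median of 0.46. The lean was thus not particular to the receptors.

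**Figure D4:**
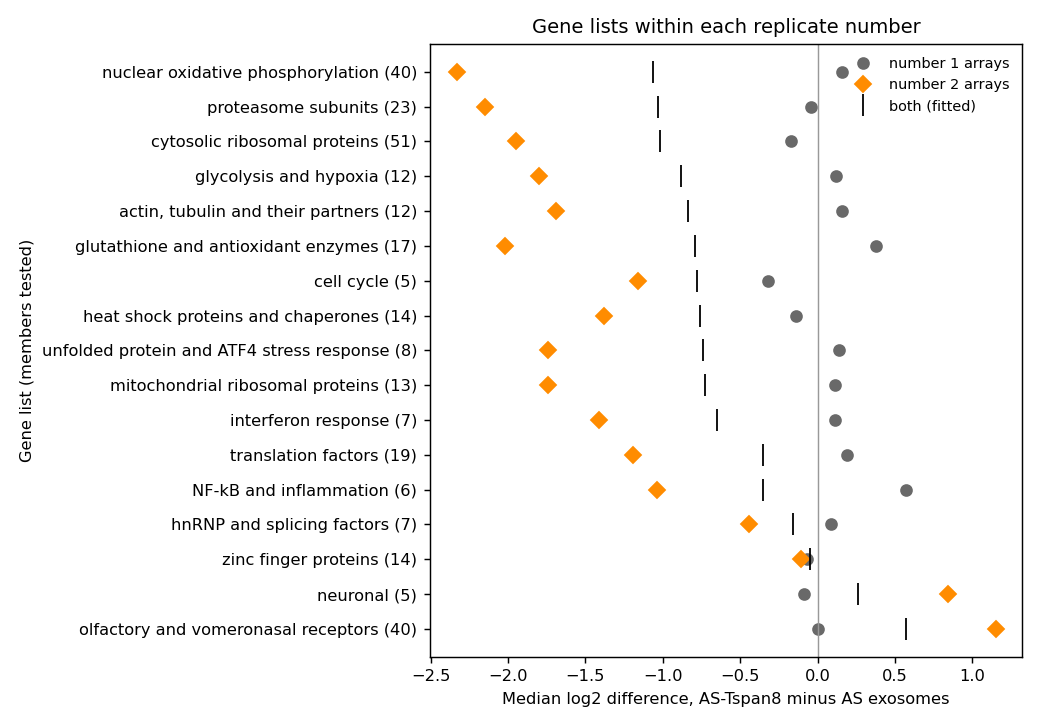
Median log2 difference, AS-Tspan8 minus AS exosomes (horizontal), of each gene list with at least 5 members tested (vertical, number tested in brackets), within the number 1 arrays (circles), within the number 2 arrays (diamonds) and fitted over both (bars). Circles lie between -0.32 and 0.57 and diamonds reach -2.33 for oxidative phosphorylation, where AS exosomes 2 is the array subtracted.

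Genes of exosome formation and membrane proteins were rarely measurable. Of 27 exosome biogenesis and ESCRT genes 16 were detected on no exosome array and 4 were tested, of 25 tetraspanins 15 were detected on none and 4 were tested, and of 17 integrins 15 were detected on none and 1 was tested. No tetraspanin or integrin was detected on all 4 arrays. Marker genes of leukocytes (13), of erythroid cells and platelets (12) and of muscle (10) were detected on no exosome array. Of 20 pancreatic tumour and epithelial markers 17 were detected on none, and the defining markers Epcam and Cdh1 were detected on no exosome or source cell array. Of the 20, 6 were detected in both source cells, among them the keratin Krt19 with 20409 in AS-Tspan8 cells and 9554 in AS cells. Endothelial, fibroblast, hepatocyte and normal pancreas markers were undetected on the exosome arrays for 13 of 15, 11 of 13, 12 of 13 and 23 of 26. Neuronal markers had 5 of 12 tested, with Gap43 at 0.37, Nefm at 0.26 and Nefl at -0.22.

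The exosome differences were set beside those of the source cells. Over 1175 features detected on all 4 exosome arrays and both cell arrays the differences correlated at Pearson r = -0.075 and Spearman rho = -0.067, a description across features that share arrays and are not independent. Of 49 features at least 2-fold lower in AS-Tspan8 cells, 13 were lower in AS-Tspan8 exosomes as well and 1 was called. Of 47 at least 2-fold higher in AS-Tspan8 cells, 23 were higher in AS-Tspan8 exosomes and 0 were called. Over all features tested 1468 were higher and 1113 were lower, and 2.21% were called higher and 0.349% called lower. With 1 and 0 calls in the same direction, the counts are too small to read as particular to these features.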

How the data were processed

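Cy3-labelled total RNA was hybridised, 1 sample per array, to rat BeadChips from Illumina, per the labels. For each array the deposited table holds raw intensity and, in the next column, the p-value of detection, per the file headers. A second, deposited table of processed intensity, linear and by a method the sources do not name, served as an alternative. Background on the 4 exosome arrays was removed by normexp from the detection p-values, then quantile normalization (offset 16) and log2 followed in limma 3.58.1 (R 4.3.3). The 2 source cell arrays were normalized apart and not tested. Probe names came from the platform annotation (13793 with 1 symbol, 8730 unnamed). Features detected on at least 2 of 4 arrays were tested by lmFit and eBayes, two-sided, with Benjamini-Hochberg adjustment. The fit has 2 residual and 501 prior degrees of freedom and a prior SD of 0.645, so its p-values lean on the spread shared by all features. The number of arrays limits the precision. The test was checked on simulated data with independent noise of the same SD on every array. The arrays here were unequal in spread, so that check does not vouch for these p-values.

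Genes were named by rule: up to 10 called in each direction with groups apart, filled to 10 by unadjusted p where the log2 difference was at least 1, the 10 brightest, the 6 brightest detected in 1 kind only, Tspan8, and up to 4 members of each list with at least 5 tested, a minimum set after the data were seen. Unnamed probes given by their ID were chosen after their values were seen. The comparison and lists were chosen with earlier results of these data known. Deviations of same-numbered arrays correlated at r = -0.627 across features. Neither this value nor the labels settle whether same-numbered arrays belong together, and the reported fit used no pairing. Alternatives covered the arrays normalized together, scaling, background, offset, detection limit, filter, prior trend, replicate block and each array left out.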

Additional observations from a re-analysis of the deposited data

Results flagged for a closer look

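Pfdn6 and 2 unnamed probes had opposite signs in the exosomes and in their source cells. The rule for this flag required a call and every AS-Tspan8 exosome array on one side of every AS exosome array, so that gap is no finding. The log2 difference of Pfdn6, AS-Tspan8 minus AS, was -2.31 in exosomes and 0.12 between the cells. The probe ILMN_1358849 had -3.12 in exosomes and 0.56 between the cells. The probe ILMN_1364489 had 3.91 in exosomes and -0.41 between the cells. The cells have 1 array each, and the difference between exosomes and cells was not tested.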

How the results depend on the processing

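The number of calls depended on nearly every setting, and no cause was tested. Against 66 calls (57 higher, 9 lower), limma gave 0 calls when the 6 tumour cell and exosome arrays were normalized together, without scaling, without background correction, without a detection filter, at a detection p under 0.05 and with an offset of 50, with 618, 438, 237, 1189, 380 and 243 features at an unadjusted p under 0.05. Median scaling gave 4 (3 higher, 1 lower), the authors' processed values 9 calls (7 and 2), an intensity trend 8 (5 and 3), and detection on all 4 arrays 4 lower. The replicate block gave 13 (11 and 2), and the numbers crossed as a block, an alternative added after seeing the data, gave 342 (215 and 127). With 1 array left out, where the lone array is assumed to vary like the others, calls ran between 0 and 677, higher between 0 and 406 and lower between 0 and 271. Probes detected in 1 exosome kind only (293, of which 118 AS-Tspan8 and 175 AS) numbered 510 (201 and 309) at a detection p under 0.05 and 43 (30 and 13) under 0.001, where 2809 and 209 were detected on all 4. With 1 array left out they ran between 394 and 1969, between 147 and 336 and between 221 and 1633. Over 101 named items, 1440 values kept direction and side of the threshold, 110 lost the call, 87 gained one and 32 turned sign. Signs turned without scaling for Rpl21 (-0.65), ILMN_1369444 (-0.07), Hnrnph3 (-0.52), Hnrnpl (-0.55), Hnrnpm (-0.69), Zfp148 (-0.35), Zfp180 (-0.25), Zfp57 (-0.25), Vom2r59 (-0.14), Or8b8 (-0.15), Or52p1 (-0.19), Bst2 (-0.25), Cxcl1 (-0.67), Gap43 (-0.56) and Nefm (-0.45). The median over all features was -0.55 without scaling, and these signs have to be read against that shift. Under median scaling the sign turned for ILMN_1371063 (0.54).
With 1 array left out the sign turned within these ranges: Rpl21 (-0.83 to 0.73), ILMN_1369444 (0.00 to 0.06), Eef1d (-1.59 to 0.09), Hnrnph3 (-0.34 to 0.95), Hnrnpl (-0.10 to 0.80), Or52p1 (-0.01 to 1.40), Hspa5 (-0.51 to 0.37), B2m (-2.25 to 0.05), Irf7 (-1.33 to 0.04), Cxcl1 (-0.55 to 1.12), Gap43 (-0.31 to 1.01) and Nefl (-1.25 to 0.87).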
